A study of Mus musculus with 6 samples.

Results

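The ErbB family of receptor tyrosine kinases and the growth factors that bind it were examined in RNA-seq libraries of mouse neurofibroma tissue. The 10 genes were chosen by symbol, 4 receptors (*Egfr*, *Erbb2*, *Erbb3* and *Erbb4*) and 6 ligands (*Nrg1*, *Hbegf*, *Areg*, *Btc*, *Tgfa* and *Ereg*), out of 24062 genes in the deposited counts, and all 10 were listed. The libraries came from 3 *Nf1*fl/fl;*DhhCre* mice and 3 mice also floxed for *Runx1* and *Runx3*, here called double knockout by their label. For the second genotype *Nf1*fl/fl stands in the protocol and the methods but not in the sample labels, and both groups were taken to lack *Nf1* in the Schwann cell (SC) lineage, where the *Dhh* promoter drives Cre. Cells of other lineages in the tissue keep intact alleles. The labels give the background of all mice as C57BL/6-I129 and name the tissue dorsal root ganglion (DRG) for the first genotype and neurofibroma tumor for the second. In the methods it is DRG/tumors for both. The ages of these mice are not given in the sources used here.

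ErbB receptors work in pairs. Ligand binding joins receptors into dimers whose kinase activity feeds the RAS-MAPK and phosphatidylinositol 3-kinase pathways, the first of which neurofibromin, the *Nf1* product, restrains. ERBB2 binds no known ligand by itself and ERBB3 has weak kinase activity, so that the ERBB2-ERBB3 pair acts as 1 receptor for neuregulin 1, the axonal signal that SCs need for survival and myelination. EGFR is scarce in normal SCs and binds a separate set of ligands, among them TGFA, amphiregulin (*Areg*), epiregulin (*Ereg*), betacellulin (*Btc*) and HB-EGF (*Hbegf*), of which the last 3 also bind ERBB4.

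Total counts per library ranged from 12439296 to 16682194. *Runx1* was at 131 to 171 CPM (counts scaled to library size) for *Nf1*fl/fl;*DhhCre*. In double knockout replicates 1 to 3 it was at 83.9, 78.8 and 185 CPM, so that replicate 3 was not lower. Cells of other lineages keep intact alleles and add to these counts, so that the bulk level does not test the label. *Runx3* was at 15.1 to 29.9 CPM and at 10.3 to 13.5 CPM. Of the double knockout libraries, 1 came from another sequencing run, and whether that was replicate 2 or 3 is unclear, since title and file disagree. Skeletal muscle genes summed to 2787 CPM in *Nf1*fl/fl;*DhhCre* replicate 2 and 11828 CPM in double knockout replicate 2 and to at most 73.7 CPM in the other libraries. Markers of 4 cell types differed between the genotypes in many of their genes. Of 21 sensory neuron markers, all detected in every library and led by *Nefl* and *Snap25*, 19 rose in the double knockout libraries, and their sum was 1954 to 3375 CPM against 7425 to 15736 CPM. Of 12 macrophage markers, led by *Itgam* and *Csf1r*, 10 fell, with sums of 1118 to 2421 CPM against 163 to 418 CPM. Of 9 fibroblast markers, led by *Dcn* and *Fn1*, 7 fell (12131 to 13422 CPM against 3903 to 6803 CPM), and of 14 markers of myelinating SCs, led by *Pmp22* and *Drp2*, 12 rose (4916 to 5666 CPM against 10508 to 13964 CPM). The 13 general SC genes, led by *Scn7a* and *Gpm6b*, summed to 5166 to 5677 CPM and 4396 to 6022 CPM, with 3 higher and 10 that did not pass the test. The marker counts depended on single libraries. Without *Nf1*fl/fl;*DhhCre* replicate 1 the counts past the threshold were 2 for neurons, 2 for macrophages, 1 for fibroblasts, 9 for myelinating SCs and 1 for general SC genes. Without *Nf1*fl/fl;*DhhCre* replicate 3, neurons gave 8 and fibroblasts 4. Without double knockout replicate 2 macrophages gave 6, fibroblasts 4 and general SC genes 2, and without double knockout replicate 3 fibroblasts gave 4 and general SC genes 2. Without both libraries that held muscle genes fibroblasts gave 4. Of the other lists, 2 of 6 satellite glia genes (*Fabp7* higher, *Kcnj10* lower), 1 of 6 perineurial genes (*Cldn1*, lower) and 1 of 6 T cell genes (*Il7r*, lower) passed. The first 2 of these lists gave 0 without *Nf1*fl/fl;*DhhCre* replicate 1, and the T cell list gave 0 without double knockout replicate 2 or 3 and without both libraries that held muscle genes, 2 with edgeR or with scaling by library size only and 3 with DESeq2. In limma-voom 0 of 8 mast cell, 0 of 8 endothelial and 0 of 11 muscle genes passed, with 2, 3 and 0 at an unadjusted p below 0.05. DESeq2 called 1 endothelial gene, and neither DESeq2 nor edgeR called any other gene of these 3 lists. Endothelial genes called numbered 3 without double knockout replicate 3 and 2 with sample quality weights, which also called 1 mast cell gene. In bulk tissue, fewer cells of a type and less RNA per cell cannot be told apart.

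The family split into genes that rose, genes that fell and genes that did not pass the test. Of the 9 members with enough counts to be tested, *Erbb4*, *Nrg1* and *Tgfa* rose and *Egfr*, *Btc* and *Ereg* fell in the double knockout libraries, each by more than 2-fold. *Erbb2*, *Erbb3* and *Hbegf* did not pass the test. A gene was said to rise or fall when limma-voom gave an adjusted p-value below 0.05 (Benjamini-Hochberg method, 15652 genes tested), and it was called a differentially expressed gene (DEG) when it also changed more than 2-fold. Of all genes tested 19.3% passed the first threshold and 13.4% both, 8.03% upward and 5.36% downward. All 6 members past the first threshold were DEGs. *Ereg* passed the filter on low counts only through the group in which it was high, so that its call is not set against these shares, and without it 5 of 8 members passed. With *Ereg* left aside in the same way, the libraries of the genotypes overlapped only for *Erbb2* and *Erbb3* among the 8 members. Of all genes tested, 42.3% showed no overlap. Of the 6 calls, 3 held whichever library was left out, those of *Erbb4*, *Nrg1* and *Tgfa*, and the count of members called was 3 when *Nf1*fl/fl;*DhhCre* replicate 1, double knockout replicate 2 or double knockout replicate 3 was left out.

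**Figure D1:**
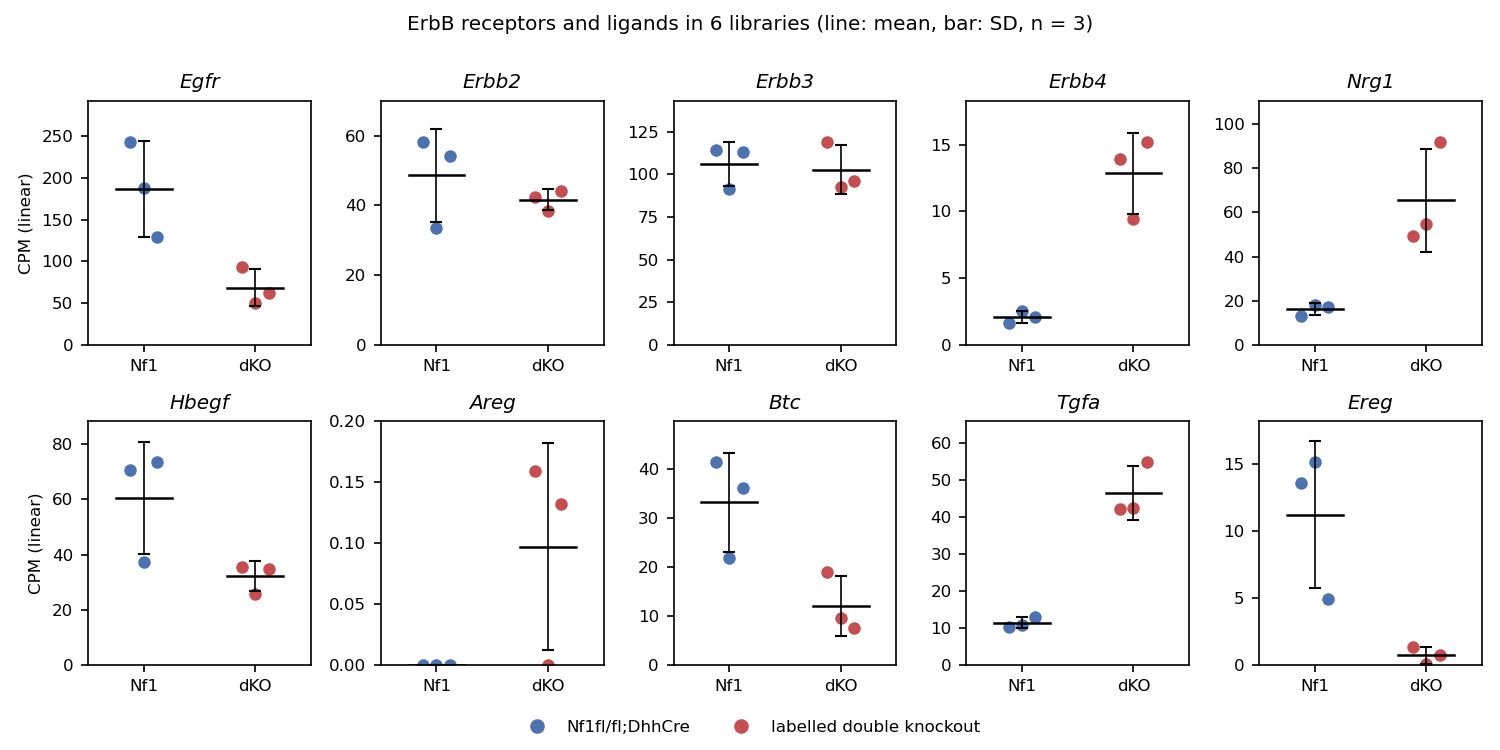
Each panel plots 1 member, with CPM on a linear axis and the libraries of each genotype as points (blue, Nf1fl/fl;DhhCre; red, labelled double knockout), a line at the mean and a bar of 1 SD (n = 3). Tgfa stays at 13.1 CPM or below in blue and at 42.3 CPM or above in red, whereas the Erbb3 points overlap and Areg is near 0 in every library.

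*Egfr* (GRCm38 chr11:16752203-16918158, plus strand) encodes the receptor for EGF, TGFA and amphiregulin. It was at 244, 189 and 129 CPM for replicates 1 to 3 of *Nf1*fl/fl;*DhhCre*, against 93.6, 50.02 and 61.9 CPM for replicates 1 to 3 of the double knockout. Every library of the first genotype lay above every library of the second, and the spread within the first was wide. The means were 187 ± 57.5 and 68.5 ± 22.6 CPM (SD, n = 3 each), which on the log2 scale was a change of -1.45 (SE 0.30, limma-voom adjusted p = 0.0203), or 2.73-fold lower. The call was lost without *Nf1*fl/fl;*DhhCre* replicate 1 (-1.21, adjusted p = 0.0683), double knockout replicate 2 (-1.25, adjusted p = 0.0639) or double knockout replicate 3 (-1.39, adjusted p = 0.0552), and kept without any of the other 3 (limma-voom in each case).

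*Erbb2* and *Erbb3*, which together form the neuregulin receptor of SCs, showed no change past the threshold. *Erbb3* (chr10:128567523-128589652, minus strand) was at 114, 91.2 and 113 CPM for *Nf1*fl/fl;*DhhCre*, against 119, 92.9 and 96.0 CPM for the double knockout. The values interleaved, and the log2 change was -0.05 (95% confidence interval -0.41 to 0.32, limma-voom adjusted p = 0.865). *Erbb2* (chr11:98412470-98437716, plus strand) was at 58.3, 33.5 and 54.1 CPM and at 42.4, 38.3 and 44.2 CPM. Replicate 2 of *Nf1*fl/fl;*DhhCre* was the lowest of the 6 libraries, and the change was -0.18 (95% confidence interval -0.72 to 0.36, limma-voom adjusted p = 0.624). Both intervals leave out a 2-fold change in either direction.

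*Erbb4*, a neuregulin receptor of neurons and heart muscle with full kinase activity, was the least abundant receptor and the one that changed most. The gene lies at chr1:68032186-69108059, minus strand. Its counts were 24, 43 and 32 for *Nf1*fl/fl;*DhhCre* (1.66, 2.56 and 2.05 CPM) and 175, 115 and 231 in the double knockout libraries (13.9, 9.44 and 15.2 CPM). The groups were far apart, and *Erbb4* was 6.05-fold higher (log2 change 2.60, SE 0.37, limma-voom adjusted p = 0.00984). Leaving out any 1 library kept the change between 2.45 and 2.81 and past the threshold, and it was 2.97 without both libraries that held muscle genes.

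To set the receptors beside the lineage that *DhhCre* recombines, each was expressed as its log2 CPM minus the mean log2 CPM of the 13 general SC genes, none of which is a member. On this scale *Egfr* was at 0.67, 0.28 and -0.22 for *Nf1*fl/fl;*DhhCre* and at -0.90, -1.44 and -1.53 in the double knockout libraries, a difference of means of -1.54. *Erbb4* differed by 2.51, again without overlap. For both the exact two-sided permutation test gave p = 0.1, the smallest that 3 libraries against 3 allow. *Erbb2* differed by -0.27 (exact permutation p = 0.4) and *Erbb3* by -0.13 (exact permutation p = 0.5), both with overlapping libraries. Against the median of the same genes these became -0.64 and -0.50, with no overlap (exact permutation p = 0.1 for each).

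Among the ligands, *Nrg1* was taken first, as the ligand of the ERBB2-ERBB3 pair. The gene spans chr8:31814551-32884029, minus strand. It was at 12.96, 18.0 and 17.2 CPM for *Nf1*fl/fl;*DhhCre*, against 49.4, 54.8 and 92.1 CPM for the double knockout. All double knockout libraries were above the others, and replicate 3, which was not reduced in *Runx1*, was the highest. *Nrg1* changed by 1.99 on the log2 scale (SE 0.29, limma-voom adjusted p = 0.0106), or 3.97-fold, and it was 1.70 without that replicate, the lowest value with any 1 library left out. The counts add all isoforms of the gene, so that the membrane-bound axonal form and the secreted forms cannot be separated. Of its exon bases, 482 are shared with the lincRNA *Gm26578* on the other strand, and whether the counting used strand is not stated.

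*Tgfa* (chr6:86195223-86275719, plus strand), which encodes an EGFR ligand, had the smallest standard error of the changed members. It was at 10.3, 10.8 and 13.1 CPM for *Nf1*fl/fl;*DhhCre*, against 42.3, 42.4 and 55.0 CPM for the double knockout. The libraries within each genotype lay close together and the genotypes did not overlap. *Tgfa* was 4.09-fold higher (log2 change 2.03, SE 0.20, limma-voom adjusted p = 0.00598), and with any 1 library left out the change stayed between 1.90 and 2.18. Of its exon bases, 118 overlap an unconfirmed transcript on the other strand.

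*Btc*, *Ereg* and *Areg* are neighbors on chromosome 5. *Areg* starts at 91139599, between *Ereg* (91074622 to 91093646) and *Btc* (91357261 to 91402994, minus strand), and *Epgn*, a further EGFR ligand, lies at 91027464 to 91035215. *Btc*, which encodes betacellulin, was at 41.4, 21.8 and 36.1 CPM for *Nf1*fl/fl;*DhhCre*, against 19.0, 9.53 and 7.45 CPM for the double knockout. The lowest of the first group was just above the highest of the second. *Btc* changed by -1.54 on the log2 scale (SE 0.40, limma-voom adjusted p = 0.0359), or 2.91-fold lower. The call was lost when replicate 1 or replicate 3 of *Nf1*fl/fl;*DhhCre* was left out (-1.34 and -1.42, limma-voom adjusted p = 0.115 and 0.105). It was also lost when double knockout replicate 2 or 3 was left out (-1.45 and -1.22, limma-voom adjusted p = 0.110 and 0.109).

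*Ereg*, which encodes epiregulin, had the largest change and the largest error of the 9 members tested. Its counts were 196, 255 and 77 for *Nf1*fl/fl;*DhhCre* (13.6, 15.2 and 4.93 CPM) and 17, 1 and 11 in the double knockout libraries (1.35, 0.0821 and 0.725 CPM). Every double knockout library was lower, replicate 2 with a single read. *Ereg* changed by -4.28 on the log2 scale (SE 1.21, 95% confidence interval -7.12 to -1.44, limma-voom adjusted p = 0.0479). The filter on low counts was passed through the *Nf1*fl/fl;*DhhCre* libraries alone, since *Ereg* in double knockout replicate 2 was below the minimum count of 10. Of its exon bases, 141 overlap the antisense transcript *Gm19610*, whose reads may not be separable from those of *Ereg*. The call was lost without replicate 1 or 2 of *Nf1*fl/fl;*DhhCre* (-4.03 and -3.90) or any of double knockout replicates 1 to 3 (-4.87, -3.33 and -4.59), with limma-voom adjusted p from 0.0543 to 0.151, and kept only without *Nf1*fl/fl;*DhhCre* replicate 3 (adjusted p = 0.0341).

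*Areg*, which encodes amphiregulin, had no read for *Nf1*fl/fl;*DhhCre* and 2, 0 and 2 reads in the double knockout libraries. A count of 0 allows up to 3 reads, or 0.179 to 0.208 CPM in the first group, so that no difference was detectable at this depth and no test was made. *Epgn* was also too low to be tested, with a mean of 0.115 CPM and 0.0531 CPM. Within this gene cluster, *Btc* and *Ereg* thus passed the test and *Areg* and *Epgn* were at the detection limit in both genotypes.

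*Hbegf* (chr18:36504927-36515805, minus strand) encodes a membrane-anchored ligand of EGFR and ERBB4. It was at 70.6, 37.3 and 73.6 CPM for *Nf1*fl/fl;*DhhCre*, against 35.6, 25.9 and 34.96 CPM for the double knockout. The groups did not overlap, but *Nf1*fl/fl;*DhhCre* replicate 2 lay close to the double knockout values. Its log2 change of -0.85 (SE 0.30, limma-voom adjusted p = 0.0889) did not pass the threshold. It passed without that replicate (-1.13, limma-voom adjusted p = 0.0108), with DESeq2 (-0.92, adjusted p = 0.0136) and with sample quality weights in limma-voom (-1.02, adjusted p = 0.0283).

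**Figure D2:**
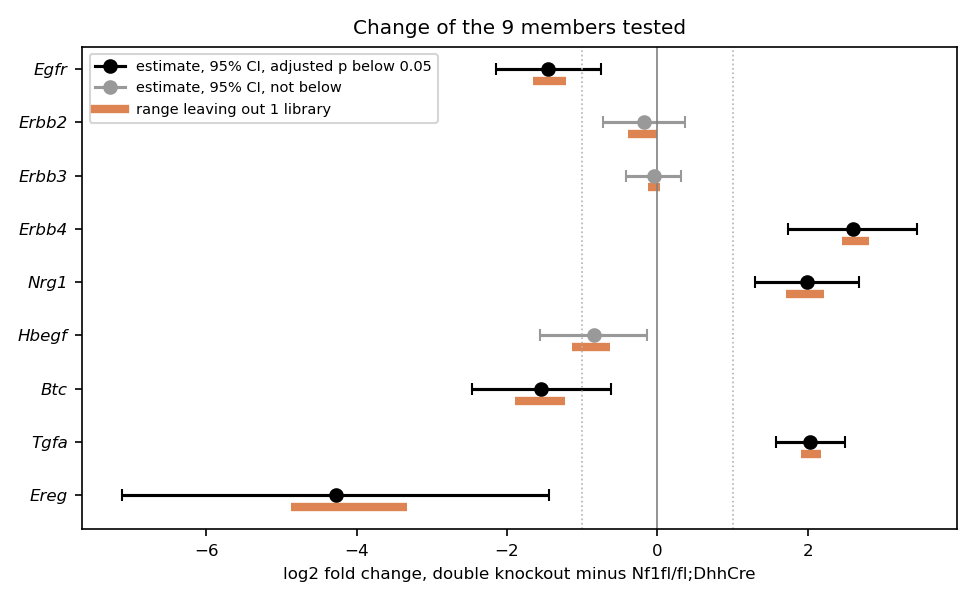
The horizontal axis gives the log2 fold change (double knockout minus Nf1fl/fl;DhhCre) of the 9 members tested, as points with 95% confidence intervals (black, adjusted p below 0.05; grey, not below), and orange bars give the range when 1 library is left out; dotted lines mark 2-fold. Erbb4, Nrg1 and Tgfa lie right of 2-fold with their whole orange bars, Erbb2 and Erbb3 lie around 0, and the interval of Ereg runs from -7.12 to -1.44.

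RUNX proteins recognize the core TGTGG, and promoters of the members were searched for it because *Runx1* and *Runx3* are the genes targeted in the double knockout. RefSeq promoters on GRCm38.p6, from 250 bases before to 50 bases after the start, were matched for 6 members (*Egfr*, *Erbb2*, *Erbb4*, *Areg*, *Btc* and *Tgfa*), and the core was sought on both strands, as TGTGG or CCACA. It stood 3 times in the *Btc* promoter and 1 time in that of *Erbb2*, and was not in these windows of *Egfr*, *Erbb4*, *Areg* or *Tgfa*. Of all 32851 promoters in the table, 55.9% held the core, and none of the matched members held the longer form TGTGGT, which 16.8% did. Of these matches, 2 of *Btc* and that of *Erbb2* are printed because *Btc* fell and *Erbb2* did not pass the test, 5′ to 3′ on the strand of the gene, with the core in capitals.
*Btc* chr5:91403170-91403198, minus strand: catgagttgaggCCACAtgaccaggtcct
*Btc* chr5:91403113-91403141, minus strand: ccttgttttgtcCCACAgggggaaagaaa
*Erbb2* chr11:98412493-98412521, plus strand: gcggcgtgaagtTGTGGagctgagattgc
A match describes the letters of the sequence only, and no binding data were used here. The paper also cites TGCGGT as a RUNX site, which was not sought. Most RUNX1 peaks in the paper lay farther from gene starts than these windows reach, so that absence of the core here is of limited meaning.

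Levels of different genes were compared as CPM per kb of exon. In the *Nf1*fl/fl;*DhhCre* libraries the order by mean was *Erbb3* (17.6 ± 2.14), *Egfr* (16.5 ± 5.07), *Hbegf* (12.5 ± 4.18), *Erbb2* (9.34 ± 2.55), *Btc* (7.32 ± 2.24), *Ereg* (2.72 ± 1.34), *Tgfa* (1.75 ± 0.23), *Nrg1* (1.55 ± 0.26) and *Erbb4* (0.169 ± 0.036 CPM per kb, SD, n = 3). From *Erbb3* to *Btc* the ranges of neighbors in this order overlapped, as they did from *Ereg* to *Nrg1*, whereas *Btc* was separate from *Ereg* and *Nrg1* from *Erbb4*. In the double knockout libraries *Erbb3* was again highest (17.1 ± 2.40) and separate from the rest. *Erbb2* (7.99 ± 0.58), *Tgfa* (7.17 ± 1.13), *Hbegf* (6.65 ± 1.13), *Nrg1* (6.32 ± 2.25) and *Egfr* (6.05 ± 1.99) followed with overlapping ranges. Below them *Btc* (2.66 ± 1.37), *Erbb4* (1.04 ± 0.25) and *Ereg* (0.175 ± 0.154 CPM per kb, SD, n = 3) were each separate from the member above. *Tgfa* moved from place 7 to place 3 in this order and *Egfr* from place 2 to place 6.

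As a share of the 4 receptors, per kb, *Egfr* made up 41.5, 43.3 and 28.0% for *Nf1*fl/fl;*DhhCre* and 22.1, 15.8 and 17.5% in the double knockout libraries. *Erbb3* made up 36.6, 39.4 and 46.1% and then 53.1, 55.2 and 51.2%. The *Erbb3* level itself did not change past the threshold, so that its share was higher while *Egfr* was lower. *Erbb2* held 21.3 ± 4.41% and 25.1 ± 2.92%, and *Erbb4* 0.402 ± 0.140% and 3.24 ± 0.64% (SD, n = 3 each). Among the ligands, *Hbegf* and *Btc* made up 47.5 ± 7.55% and 27.9 ± 3.06% for *Nf1*fl/fl;*DhhCre* and 28.9 ± 2.37% and 11.7 ± 5.96% in the double knockout libraries. *Tgfa* went from 6.97 ± 1.60% to 31.2 ± 3.01% and *Nrg1* from 6.33 ± 2.38% to 27.1 ± 6.55% (SD, n = 3 each). These shares are descriptions and were not tested.

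**Figure D3:**
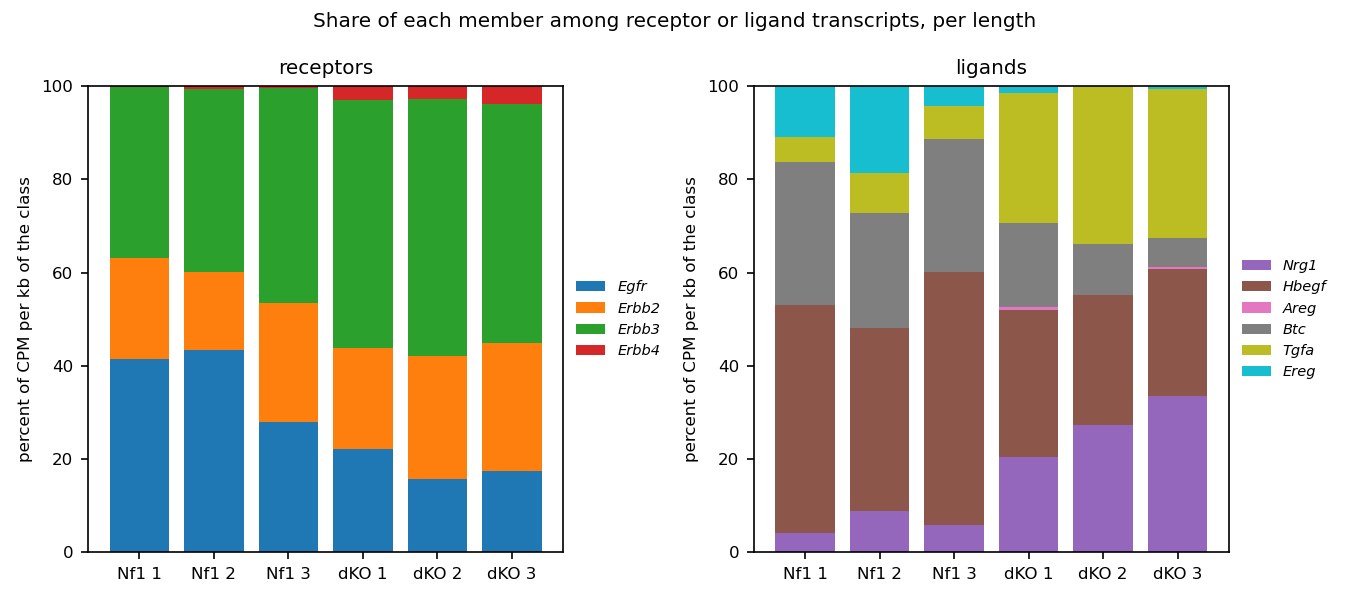
Stacked bars give, for each library, the percent of CPM per kb that each member takes among the 4 receptors (left) and the 6 ligands (right). The Egfr part is 28.0% or more in the Nf1fl/fl;DhhCre libraries and 22.1% or less in the double knockout libraries, and the Tgfa part is 27.9% or more in the latter.

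Because the marker genes of several cell types moved with the genotype, members were also set against those lists, a choice made after their values were seen. *Nrg1* minus the mean log2 CPM of 21 sensory neuron genes was at -1.18, -1.61 and -0.55 for *Nf1*fl/fl;*DhhCre* and at -1.13, -1.25 and -1.21 in the double knockout libraries. The groups overlapped, with a difference of -0.08 where the CPM themselves differed by 1.99 on the log2 scale (exact permutation p = 0.8). *Tgfa* differed by -0.04 against the same list (exact permutation p = 0.9) and *Erbb4* by 0.53 (exact permutation p = 0.3), both with overlap. *Egfr* against 9 fibroblast genes was at -1.72 ± 0.46 and -2.07 ± 0.23 (SD, n = 3 each), and *Btc* against them at -4.22 ± 0.45 and -4.65 ± 0.26 (SD, n = 3 each), again with overlap (exact permutation p = 0.3 for each). Against 12 macrophage genes *Btc* differed the other way, by 0.88 (exact permutation p = 0.2), with overlap, and *Ereg* differed by -1.94 (exact permutation p = 0.2), with overlap between the genotypes. *Hbegf* was at -0.11 ± 0.23 and 1.44 ± 0.41 (SD, n = 3 each) relative to the macrophage genes, higher in every double knockout library (exact permutation p = 0.1, the smallest possible). The lists themselves moved, with median log2 fold changes of 2.27 (sensory neurons), -1.09 (fibroblasts) and -2.51 (macrophages). A member that moves like its list then differs little from it, whatever the reason. Myelinating SC genes also rose (median 1.49), and no member was set against them. The part of cell composition in the changes of the members was not tested.

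**Figure D4:**
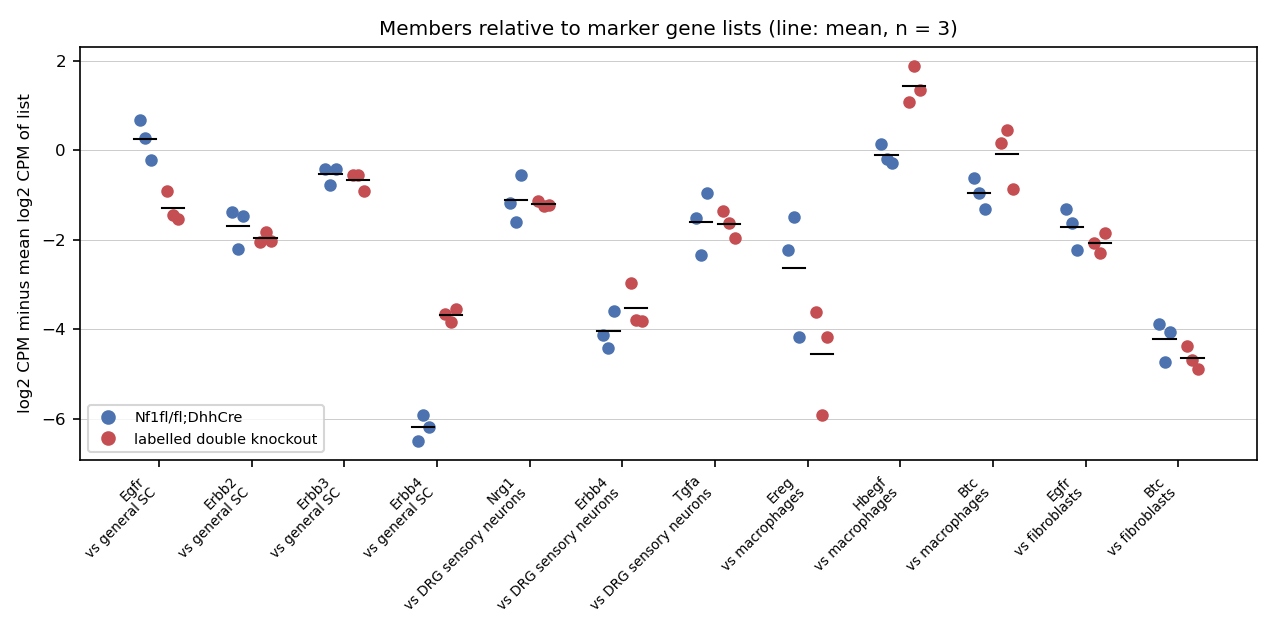
The vertical axis gives the log2 CPM of a member minus the mean log2 CPM of a marker list, for pairs named on the horizontal axis, with 1 point per library (blue, Nf1fl/fl;DhhCre; red, labelled double knockout) and lines at the means. Egfr and Erbb4 against general SC genes do not overlap between the genotypes, while Nrg1 and Tgfa against sensory neuron genes do, with differences of -0.08 and -0.04.

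The rest of the pathway was described by 6 lists of genes grouped by role. Of 72 genes tested in these lists 20 passed the FDR threshold, 6 higher and 14 lower in the double knockout libraries, beside 11.1% higher and 8.22% lower among all genes tested. Leaving out replicate 1 or replicate 3 of *Nf1*fl/fl;*DhhCre* gave 3 and 8 genes, and leaving out replicate 2 or replicate 3 of the double knockout gave 9 and 12. The median log2 fold change over all genes tested was 0.02.

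Of the other ligands, 4 were tested and 1 passed. *Nrg3*, a neuronal ligand of ERBB4, rose from 4.99 ± 2.44 to 25.7 ± 13.6 CPM (SD, n = 3 each; log2 change 2.34, limma-voom adjusted p = 0.0240), a call lost when replicate 1 or 3 of *Nf1*fl/fl;*DhhCre* was left out. *Nrg4*, also an ERBB4 ligand, was at 13.1 ± 9.45 and 55.4 ± 38.6 CPM (SD, n = 3 each) with overlap and did not pass, but it did when double knockout replicate 3 was left out (limma-voom adjusted p = 0.0436). Of 7 genes of ligand shedding, *Adam10*, a protease that releases betacellulin, rose by 0.64 (SE 0.16) on the log2 scale and *Rhbdf1*, which guides ADAM17 to the cell surface, fell by 0.78 (SE 0.19). *Timp3*, the ADAM17 inhibitor and the most abundant of them, changed by -0.39 (SE 0.21) and did not pass. The list had a median of -0.26, and 1 of its genes passed when libraries were scaled by size only. The call of *Rhbdf1* was lost in each of the 6 fits with 1 library left out, and that of *Adam10* in 4 of them, without *Nf1*fl/fl;*DhhCre* replicate 1 or any of the double knockout replicates.

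Of 10 receptor inhibitors 3 fell and 7 did not pass, with a median of -0.46. *Cbl*, a ubiquitin ligase that sends active EGFR to degradation, fell by 0.62 (SE 0.13), *Ptpn12*, a phosphatase of ErbB receptors, by 0.59 (SE 0.14) and *Socs5* by 0.79 (SE 0.17). *Cblb* was 0.61 lower on the same scale but did not pass (limma-voom adjusted p = 0.0927). With DESeq2 7 of these genes passed, and 5 with edgeR and with sample quality weights. Without *Nf1*fl/fl;*DhhCre* replicate 1 the count was 0, without *Nf1*fl/fl;*DhhCre* replicate 3 or double knockout replicate 2 it was 1, and it was 1 without both libraries that held muscle genes (limma-voom). The call of *Ptpn12* was lost in 5 of the 6 fits with 1 library left out, that of *Cbl* in 3 and that of *Socs5* in 2.

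Of 28 adaptors and members of the RAS pathway, 4 rose, 2 fell and 22 did not pass, with a median of 0.11. *Gab2*, a docking protein downstream of ErbB receptors, fell from 165 ± 11.4 to 74.7 ± 5.80 CPM (SD, n = 3 each; log2 change -1.14, limma-voom adjusted p = 0.00764). *Pik3cb* fell by 0.61. Among the genes that rose, *Sos1*, which activates RAS, did so by 0.61, *Shc4* by 0.63 and *Mapk3* by 0.97 on the log2 scale, each by less than 2-fold. *Gab2* passed whichever library was left out, whereas *Pik3cb* lost its call in 5 of 6 such fits, *Shc4* in 3 and *Sos1* and *Mapk3* in 2. The list gave 1 gene without *Nf1*fl/fl;*DhhCre* replicate 1 and 3 without *Nf1*fl/fl;*DhhCre* replicate 3.

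The list of MAPK feedback genes held genes that MAPK signaling induces, both feedback regulators and other targets such as the transcription factors *Etv1*, *Etv4* and *Etv5*. Of 14 tested, 5 fell and 9 did not pass. The log2 change was below 0 for 13 of the 14, with a median of -0.62, and *Dusp4*, an ERK phosphatase named after its value was seen, was at 1.35 (SE 0.59) and did not pass. *Spred1*, which recruits neurofibromin to RAS, fell from 318 ± 43.1 to 138 ± 18.6 CPM (SD, n = 3 each; log2 change -1.20, limma-voom adjusted p = 0.00911). *Etv4*, a transcription factor, fell by 1.82 (SE 0.31), *Spry1*, an inhibitor of receptor tyrosine kinase signaling, by 1.15 (SE 0.24), *Dusp6*, the ERK phosphatase, by 1.02 (SE 0.22) and *Spry4* by 0.83 (SE 0.22). Of 9 immediate early genes tested, 3 fell and all 9 had negative values, with a median of -1.07. With DESeq2 5 of them passed. *Egr1* fell from 171 ± 41.4 to 73.5 ± 11.4 CPM (SD, n = 3 each), *Egr3* by 1.07 (SE 0.27) and *Jun* by 0.52 (SE 0.13) on the log2 scale. *Spred1* and *Egr1* passed whichever library was left out, *Etv4* lost its call in 1 of 6 such fits, *Spry1*, *Dusp6* and *Egr3* in 4 and *Spry4* and *Jun* in 5. The counts of these last lists fell to 1 each without *Nf1*fl/fl;*DhhCre* replicate 1 and to 2 and 1 without either *Nf1*fl/fl;*DhhCre* replicate 3 or double knockout replicate 2. Without double knockout replicate 1 the immediate early genes gave 1, and without double knockout replicate 3 the feedback genes gave 2.

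**Figure D5:**
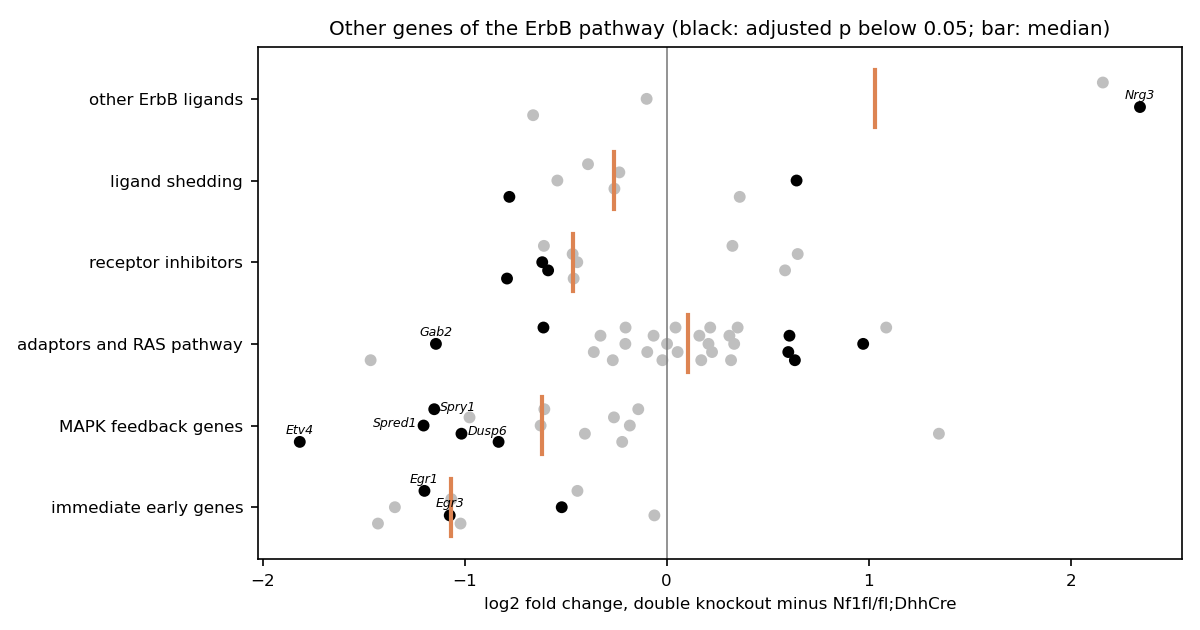
Each point is a tested gene of a pathway list, placed by its log2 fold change (double knockout minus Nf1fl/fl;DhhCre), black where the adjusted p was below 0.05, with orange bars at the median of each list and names for genes past both thresholds. The list of MAPK feedback genes, which also holds other targets, has a median of -0.62 with Etv4 at -1.82, and the only named gene to the right is Nrg3 at 2.34.

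The genes whose pattern over the 6 libraries was most like that of a member were sought among 10221 genes whose average log2 CPM was 3 or more, by the root mean square (RMS) difference of log2 CPM after centring each gene. Nearest to *Egfr* were *Prtg* (RMS 0.16), *Efemp1* (0.17) and *Il1rl2* (0.18). Nearest to *Erbb3* were *Sh3bp5* (0.03), *Sepp1* (0.04) and *Emp2* (0.05). Nearest to *Nrg1* were *Rab9b* (0.10), *Syn2*, a synaptic vesicle protein (0.11), and *1700001L05Rik* (0.11). The difference between the genotypes enters this measure, so that it is a description only.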

How the data were processed

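RNA was amplified with the Ovation RNA-Seq System, sequenced from Nextera XT libraries, aligned to mm10 with TopHat and counted with featureCounts by the authors. The deposited values are raw counts per gene, not normalized. Neither annotation nor strand setting is given in the sources used here. Replicates were numbered in the order of the labels, and nothing pairs them. Libraries of 1 genotype differed by a chi-square of at least 21.7 per degree of freedom, and no library repeated another.

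Low genes were removed by filterByExpr at a count of 10 and a total of 15, and libraries were scaled by the trimmed mean of M values before limma-voom was fitted on genotype alone in all 6 libraries, after the study's methods (R 4.3.3, edgeR 4.0.16, limma 3.58.1). P-values were adjusted over all genes by the Benjamini-Hochberg method. CPM were computed from the counts and these factors, and log2 CPM carried a prior count of 0.5. Exon lengths are unions of GENCODE M21 exons, with a build equal to mm10, and limits from counts of 0 cover counting error only. The alternatives tried were DESeq2 1.42.0, the quasi-likelihood test of edgeR, other scalings and filters, sample weights and leaving out libraries. The fitting of genotype differences was tested on simulated counts, and the other steps were not. The members and lists were chosen with earlier results of these data known. All members are named. Of each pathway list, DEGs are named, or the 2 most abundant genes where there were none, and for marker lists the 2 most abundant genes where the list is described. The other pathway genes past the threshold were named after their values were seen. For *Egfr*, *Erbb3* and *Nrg1* the 3 most similar genes are named. Some items are not reported here. Lists were matched by the symbols in the files. Figures were drawn with matplotlib 3.10.9.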

Additional observations from a re-analysis of the deposited data

How the results depend on the processing

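With all 6 libraries, the 7 alternatives of test, scaling, filter and weights kept the direction of each of the 9 members tested and the calls of *Egfr*, *Erbb4*, *Nrg1*, *Btc*, *Tgfa* and *Ereg*. *Hbegf* gained the call with DESeq2 and with sample quality weights. Leaving out 1 library, the members past the FDR threshold numbered 3 to 6 and so did those called DEG, the pathway genes past it 3 to 23 and the marker genes 16 to 55. The genes past the threshold in the whole table numbered 383 without *Nf1*fl/fl;*DhhCre* replicate 1, against 3017 with all libraries. The *Erbb3* change lay between -0.12 and 0.0405 in these fits, and its sign was not stable. With 1 library left out, the receptors relative to general SC genes kept their sign, with *Egfr* from -1.77 to -1.32, *Erbb2* from -0.53 to -0.12, *Erbb3* from -0.25 to -0.02 and *Erbb4* from 2.36 to 2.65. Against the median of these genes the values lay outside these ranges, at -1.91, -0.64, -0.50 and 2.14, with the same signs. Without both libraries that held muscle genes, a setting added after seeing the data, 5 members were called. *Egfr* (-1.21, adjusted p = 0.0776 from limma-voom) and *Ereg* (-3.01, adjusted p = 0.0875 from limma-voom) lost the call and *Hbegf* gained it (-1.02). The level order was the same when scaled by library size only. No paired analysis was possible because the replicate numbers only follow the order of the labels. With 3 mice per genotype and *Areg*, *Epgn* and, in the double knockout libraries, *Ereg* near the detection limit, small changes could not be resolved.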

Other observations

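Other receptor tyrosine kinases were looked up for comparison, in a list of 26 written after the values of the ErbB family were seen. Of 25 tested, 5 rose and 6 fell in the double knockout libraries and 14 did not pass, with a median log2 fold change of 0.01. Among all genes tested, 11.1% rose and 8.22% fell. The 11 calls became 2 without *Nf1*fl/fl;*DhhCre* replicate 1, 5 without double knockout replicate 2 and 7 without both libraries that held muscle genes, and *Axl* and *Ddr2* passed whichever library was left out. *Ret*, the receptor for GDNF family ligands in sensory neurons, rose from 37.8 to 207 CPM (log2 fold change 2.52, SE 0.45). *Ntrk3*, a neurotrophin receptor, rose by 1.49 (SE 0.26) on the log2 scale, and *Epha4* and *Igf1r* by 0.80 and 0.48. *Csf1r*, the macrophage growth factor receptor, fell by 2.16 (SE 0.40) and *Pdgfra*, a receptor of fibroblasts, by 1.23 (SE 0.32). *Axl* fell from 576 to 215 CPM (log2 fold change -1.47, SE 0.20), *Ephb2* by 1.46, *Ddr2*, a collagen receptor, by 1.19 and *Fgfr2* by 1.11. With 1 library left out, *Ret*, *Ntrk3* and *Ephb2* lost the call in 1 of 6 fits, *Csf1r* in 2, *Pdgfra*, *Igf1r* and *Fgfr2* in 4 and *Epha4* in 5.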
